A study of Mus musculus with 6 samples.

Results

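The 9 genes of ileal bile acid transport and the bile acid receptor FXR, taken by name from the 23284 genes in the count files, were compared between wild-type (WT) mice and mice without SHP (SHP-KO). They are Slc10a2, Fabp6, Osta, Ostb, Abcc2, Abcc3, Nr1h4 (FXR), Fgf15 and Nr0b2, which encodes SHP itself. RNA came from intestine, with jejunum and ileum given as 1 tissue, of male mice aged 8 weeks that had food back for 6 h after a night without it. Each genotype had 3 libraries. The labels used here name no strain, do not describe the SHP-KO allele, and do not say whether a library is 1 animal or a pool.

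Bile acids are made by the liver and taken back mainly in the distal ileum. Slc10a2 carries them in from the lumen, Fabp6 binds them in the cytosol, and the Osta and Ostb proteins together form the basolateral exporter. Inside the enterocyte bile acids activate FXR, which is known to induce Fabp6, Osta, Ostb, SHP and the hormone Fgf15, and Fgf15 in turn lowers bile acid synthesis in the liver. SHP is a nuclear receptor without a DNA-binding domain that acts as a corepressor, and repression of Slc10a2 is one of the roles described for it.

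Of the 9 genes, 6 fell in SHP-KO, 1 rose and 2 did not pass. Fabp6 fell 74.7-fold, Nr1h4 3.73-fold, Ostb 3.05-fold and Osta 2.84-fold, and Fgf15 fell 1.34-fold. Slc10a2, the importer, rose 2.20-fold. Abcc2 stayed within a narrow interval around no change, and Abcc3 had 1 WT library far from the others. Most genes in these libraries differed: 70.6% of 12106 tested genes passed an adjusted p of 0.05 in edgeR's quasi-likelihood test, 35.4% lower and 35.2% higher, so that 6 lower of 9 has to be read against a background of 35.4%. A fall of at least 2-fold was rarer, at 8.15% of tested genes, and 5 of the 9 genes reached it. Both counts of lower genes include Nr0b2, the deleted gene, whose fall the design fixed. A rise of at least 2-fold was seen in 11.9%, and Slc10a2 reached it. The median log2 fold change was -1.51 over the 9 genes, Nr0b2 included at -5.14, and -0.012 over all tested genes. Without Nr0b2 the median of the members lies between Osta at -1.51 and Fgf15 at -0.43. In the table the authors deposited, 34.6% of 12939 genes passed and 15.6% were lower. Of the 9 genes 5 were lower there, Nr0b2 among them, 1 was higher and 3 did not pass, Fgf15 being the third.

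The libraries held 7956528 to 13511800 counts. Pairs of libraries of 1 genotype differed by 1.33 to 1.97 times the variance that sampling alone gives, and the common biological coefficient of variation (CV) over genes was 0.0297. The p-values therefore measure a very small spread between libraries, which may be technical. The authors' deposited table used a p-value that matches an assumed CV of 0.2. Its adjusted p was the stricter value for the members that passed here, and it is given below for those other than Nr0b2. All 11 epithelial markers were detected in both genotypes, in WT at means from 9.89 CPM (Lgals4) to 5489 CPM (Krt8), where CPM are counts scaled to a common library size. They summed to 23982 to 24168 CPM in WT and 23507 to 23523 in SHP-KO. Singly they moved both ways: 6 fell, 4 rose and Epcam did not pass, beside 35.4% lower and 35.2% higher among all tested genes. The changes ran from log2 -0.82 (Krt19) to 0.56 (Krt18). At an assumed CV of 0.2 only Krt19 passed and 10 did not. All 17 ileal enterocyte markers found in the files were detected in both genotypes as well. The 4 colonocyte markers summed to 232.4 to 252.6 CPM in WT and 142.7 to 157.6 in SHP-KO, nearly all from Car4 and Slc26a3, while Car1 had no counts. The 5 hepatocyte markers summed to 0.91 to 1.40 and 1.09 to 2.55 CPM, with Fga and Fgb at 0. Smooth muscle markers summed to 337.5 to 339.6 CPM in WT and 1182 to 1213 in SHP-KO, and all 9 rose. The 5 B cell markers summed to 61.5 to 65.3 and 1.02 to 1.38 CPM, and all fell. The 5 adipocyte markers summed to 2.04 to 3.21 and 22.6 to 26.3 CPM, and the 3 that could be tested (Fabp4, Car3 and Cfd) rose. Their part in the results was not tested.

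The upstream sequence of Fabp6 is shown because this gene fell 74.7-fold from a high level, and that of Slc10a2 because it moved the other way. Both are the 250 bases before the RefSeq start in GRCm38.p6, on the minus strand, printed 5′ to 3′. Capitals mark the windows closest to AGGTCANTGACCT, an inverted repeat of the nuclear receptor core site with 1 base between its arms (IR-1), the type of site that FXR is known to bind with its partner RXR. The motif reads the same on both strands.

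Fabp6 (chr11:43601563-43601812): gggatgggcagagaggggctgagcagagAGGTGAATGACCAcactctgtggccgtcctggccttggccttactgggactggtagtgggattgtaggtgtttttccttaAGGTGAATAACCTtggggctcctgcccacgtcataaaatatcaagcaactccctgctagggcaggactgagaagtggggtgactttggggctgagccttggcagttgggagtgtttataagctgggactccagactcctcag

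Slc10a2 (chr8:5105288-5105537): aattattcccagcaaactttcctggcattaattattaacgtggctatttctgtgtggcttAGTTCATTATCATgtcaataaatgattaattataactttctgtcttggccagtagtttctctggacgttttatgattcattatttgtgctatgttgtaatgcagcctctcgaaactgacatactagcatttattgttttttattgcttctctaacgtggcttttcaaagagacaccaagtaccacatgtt

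The Fabp6 sequence held 2 windows with 2 mismatches in the 12 fixed positions, AGGTGAATGACCA and AGGTGAATAACCT. They began 222 and 142 bases upstream of the start. Of 32851 upstream sequences of this length, 0.959% held a window at least that close. The best windows of Ostb and Osta had 3 mismatches, which 9.63% of upstream sequences reach.

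Ostb (chr9:65422948-65422960): GGGTCATTCACCC

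Osta (chr16:32487946-32487958): AGGACTTTGTCCT

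Those of Slc10a2, Abcc2, Nr1h4 and Nr0b2 had 4 mismatches, as few as in 50.02% of all sequences. The table held 7 of the 9 genes, Osta and Ostb under their RefSeq symbols Slc51a and Slc51b. A match is a description of letters, and nothing follows from a window without one.

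Slc10a2, the sodium-dependent bile acid importer of the ileal brush border, lies at chr8:5085623-5105232 in mm9, the build of the count files, with 6 exons. Its level was 314.4, 288.4 and 305.6 CPM in WT replicates 1 to 3 and 678.6, 680.5 and 638.8 CPM in SHP-KO replicates 1 to 3. All 3 SHP-KO libraries lay above all 3 WT libraries, and the lowest of them was far above the highest WT library. The log2 fold change was 1.14 (SE 0.030, adjusted p 1.7e-50, edgeR), and the authors' deposited table gives 1.12 with an adjusted p of 2.8e-05. It was the 1 member that rose. Per kilobase of exon it stood at rank 454 to 489 of all genes in WT and at 190 to 206 in SHP-KO.

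Fabp6, the ileal bile acid-binding protein, lies at chr11:43409614-43415013 (mm9) with 4 exons that sum to only 387 bases in the authors' gene model. WT libraries held 151655, 120882 and 141580 counts, or 11077, 10599 and 10701 CPM. SHP-KO libraries held 1148, 1273 and 1293 counts, or 146.1, 139.2 and 148.2 CPM. In WT this gene alone took 1.07% to 1.12% of all counts and was the second gene of the library by reads per kilobase, whereas in SHP-KO it took 0.0137% to 0.0146% and stood at rank 213 to 222. The log2 fold change was -6.22 (SE 0.030, adjusted p 5.1e-112, edgeR), and the authors' deposited table gives -6.24 with an adjusted p of 2.6e-94. Leaving Fabp6 out of the library totals did not move the fold changes of the other members beyond their SE.

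Osta and Ostb encode the subunits of the basolateral bile acid exporter, and neither works without the other. Osta lies at chr16:32475664-32487965 with 9 exons and Ostb at chr9:65260560-65270580 with 4 exons (mm9). Osta was at 2260, 2324 and 2278 CPM in WT and at 811.9, 791.6 and 811.2 CPM in SHP-KO. Ostb was at 594.6, 553.1 and 588.7 CPM in WT and at 179.7, 199.5 and 190.3 CPM in SHP-KO. Both genes were lower in every SHP-KO library than in any WT library. Log2 fold changes were -1.51 (SE 0.025, adjusted p 6.0e-69) for Osta and -1.61 (SE 0.033, adjusted p 1.4e-58) for Ostb in edgeR. In the authors' deposited table the adjusted p was 5.8e-09 for Osta and 5.6e-10 for Ostb.

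The subunits kept a similar ratio to each other. Per kilobase of exon, Osta reads stood to Ostb reads at 1.20, 1.33 and 1.22 in WT and at 1.43, 1.25 and 1.35 in SHP-KO, and the ranges of the genotypes overlapped. The log2 difference was 0.10, with a two-sided exact permutation p of 0.2 (0.27 adjusted over 4 ratios). With 3 libraries against 3 this test cannot go below 0.1, so it cannot show a difference here.

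Abcc2, an exporter of organic anions and bile acid conjugates in the apical membrane, did not pass. It lies at chr19:43856798-43912708 (mm9), and its 32 exon intervals sum to 5389 bases. WT libraries were at 259.5, 264.2 and 255.0 CPM and SHP-KO libraries at 263.7, 258.8 and 270.8 CPM, so that the genotypes overlapped. The log2 fold change was 0.027 with a 95% interval of -0.037 to 0.091 (adjusted p 0.46, edgeR). The interval leaves room for a change of only that size in either direction, as far as the spread between these libraries shows.

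Abcc3 is the basolateral relative of Abcc2 and lies at chr11:94204609-94254290 (mm9), with 31 exon intervals. The WT libraries held 251, 644 and 298 counts, or 18.3, 56.5 and 22.5 CPM, and the SHP-KO libraries 216, 237 and 242 counts, or 27.5, 25.9 and 27.7 CPM. WT replicate 2 was 2.76-fold above the mean of the other WT libraries, while the SHP-KO libraries lay close together. With all libraries the log2 fold change was -0.23 with a 95% interval of -1.74 to 1.28 (adjusted p 0.74, edgeR). Without WT replicate 2 the sign turned and the gene passed, at log2 0.40 (SE 0.090, adjusted p 4.0e-05, edgeR). The direction of Abcc3 thus rests on 1 library.

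For 7 of the other members WT replicate 2 was at 0.93 to 1.03 times the mean of the other WT libraries, and for the low-count Nr0b2 at 0.61 times. In a search made after these values were seen, over 6801 tested genes with at least 500 counts in WT, WT replicate 2 was at least 1.5-fold above the mean of the other WT libraries for 2 genes, and both are ABC exporters. The other was Abcg2, an apical exporter of sulfated bile acids and many drugs, at 320.7, 565.3 and 316.6 CPM in WT and 162.9, 167.3 and 160.8 CPM in SHP-KO. Abcg2 was lower in every SHP-KO library (log2 -1.28, adjusted p 0.020, edgeR). With that library left out the log2 value was -0.97 (adjusted p 5.3e-72, edgeR).

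**Figure D1:**
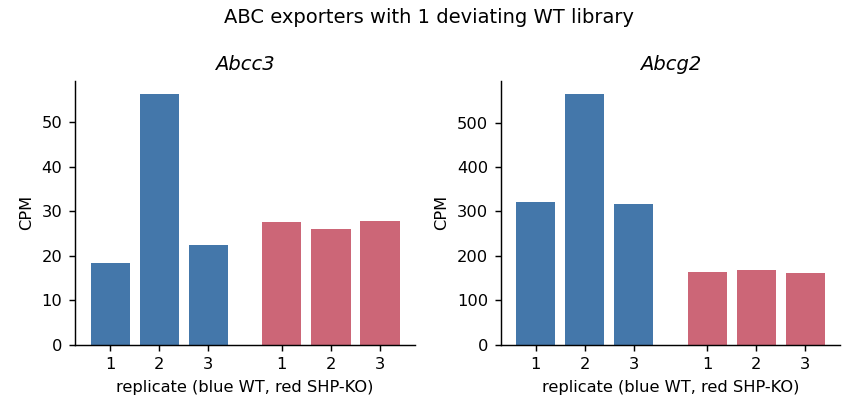
Level of Abcc3 and Abcg2 in each library, in CPM, with 1 bar per library (blue WT, red SHP-KO). WT replicate 2 is the tallest bar in both plots, at 56.5 CPM for Abcc3 and 565.3 CPM for Abcg2.

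Nr1h4 encodes FXR, the bile acid receptor, and lies at chr10:88916979-88996367 (mm9) with 11 exon intervals. It was at 109.7, 104.9 and 104.1 CPM in WT and at 30.0, 27.0 and 28.5 CPM in SHP-KO, with a wide gap between the genotypes. The log2 fold change was -1.90 (SE 0.058, adjusted p 8.6e-48, edgeR), and the authors' deposited table gives -1.91 with an adjusted p of 8.2e-13. Rxra, which encodes the partner with which FXR binds DNA, fell by 0.51 on the log2 scale (adjusted p 5.0e-23, edgeR), a call lost in the exact test at a CV of 0.2 (adjusted p 0.071, edgeR). Rxrb did not pass (log2 -0.023, adjusted p 0.79, edgeR).

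Fgf15, the ileal hormone that FXR induces, lies at chr7:152082437-152086856 (mm9) with 3 exons. WT libraries were at 59.7, 60.2 and 62.7 CPM and SHP-KO libraries at 47.9, 46.7 and 41.4 CPM. The genotypes did not overlap, but the gap between the lowest WT and the highest SHP-KO library was small beside those of Fabp6 and Nr1h4. The log2 fold change was -0.43 (SE 0.061, adjusted p 1.9e-09, edgeR), while in the authors' deposited table Fgf15 did not pass, with an adjusted p of 0.15.

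Fgf15 and Nr1h4 moved by different amounts. Per kilobase, Fgf15 reads stood to Nr1h4 reads at 0.70, 0.74 and 0.78 in WT and at 2.06, 2.24 and 1.88 in SHP-KO. The ratio went from 0.74 ± 0.038 to 2.06 ± 0.18 (SD, n = 3), 2.77-fold higher, with no overlap and a two-sided exact permutation p of 0.1 (0.2 adjusted over 4 ratios), the smallest that 3 against 3 allows. Thus Fgf15 was below Nr1h4 per length in WT and above it in SHP-KO.

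Nr0b2, the deleted gene, was counted 31, 14 and 23 times in the WT libraries and 1, 0 and 0 times in the SHP-KO libraries, which fits the labels of all 6 libraries. It lies at chr4:133109305-133112451 (mm9) with 2 exons. At 1.23 to 2.26 CPM in WT it was the member with the lowest level per length in both genotypes. Scaled for library size, the summed WT counts were 45.6 times the single SHP-KO count, with a 95% counting interval of 7.92 to 1829.

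**Figure D2:**
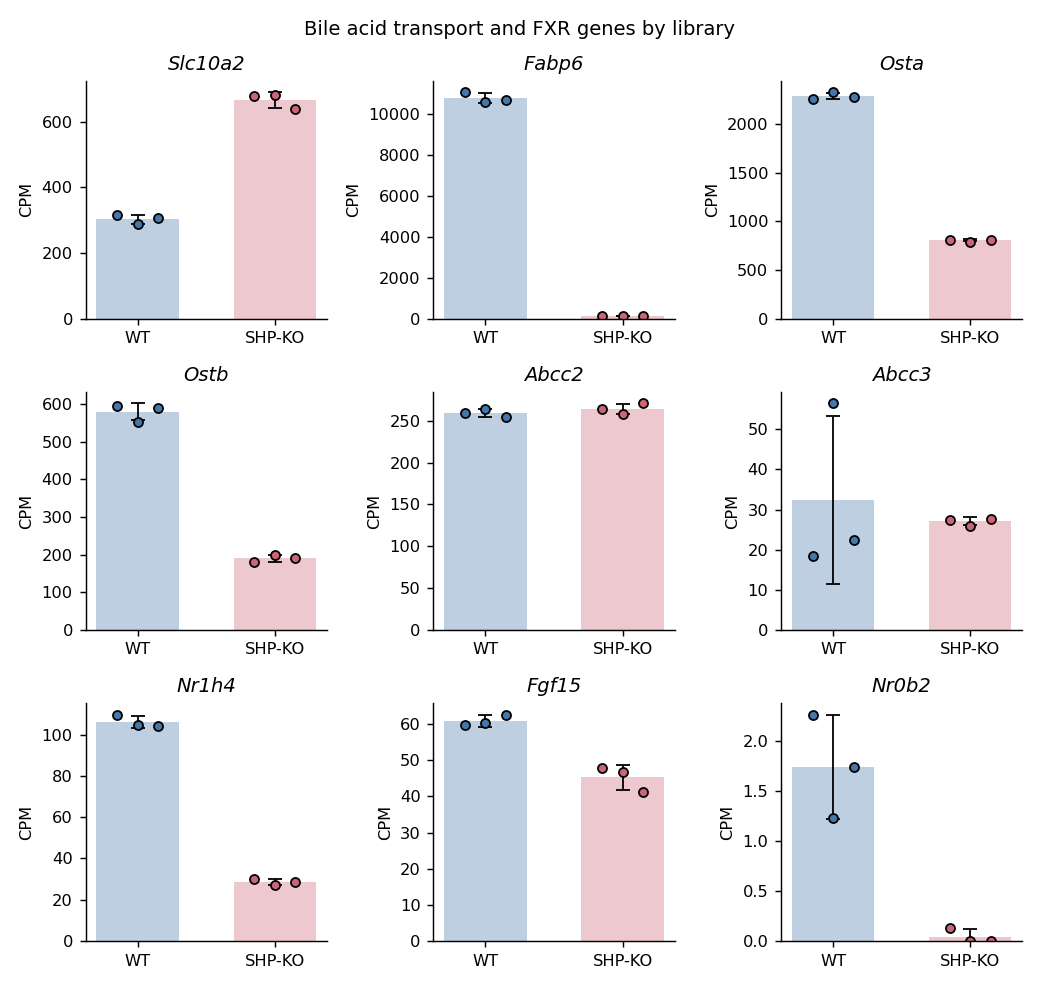
Level of the 9 genes in each library, in CPM on a linear axis from 0, with bars for the mean, error bars for the SD and points for the 3 libraries of each genotype. Fabp6, Osta, Ostb, Nr1h4, Fgf15 and Nr0b2 are lower in all SHP-KO libraries, Slc10a2 is higher in all, and Abcc2 and Abcc3 overlap.

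Groups did not overlap in the 6 genes that fell, the deleted Nr0b2 among them, and in Slc10a2. Among all tested genes 72% did not overlap between the genotypes, 36.1% with SHP-KO lower. The CV between libraries of a genotype was 1.44% to 7.64% for the members other than Abcc3 in WT (64.5%) and Nr0b2.

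**Figure D3:**
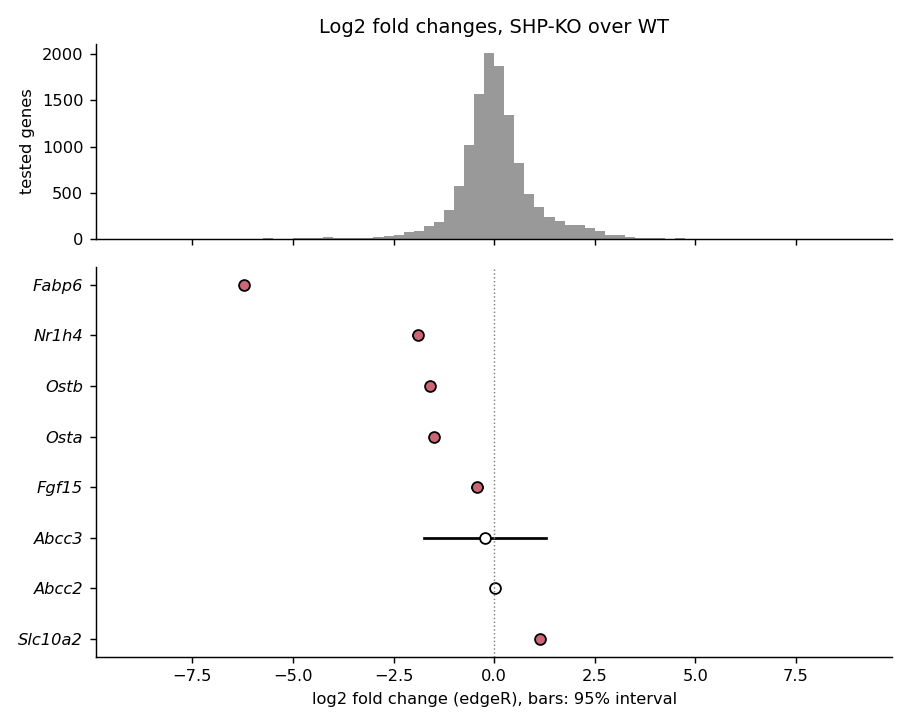
Log2 fold changes (SHP-KO over WT) of all 12106 tested genes as a histogram above, and of 8 members with 95% intervals below (red for an adjusted p under 0.05, white for others). Nr0b2 is left out because its fitted value rests on 1 count in SHP-KO. Fabp6 at -6.22 lies far in the lower tail, Slc10a2 is the only red point above 0, and the interval of Abcc3 reaches from -1.74 to 1.28.

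The order of levels per length differed between the genotypes. In WT, reads per kilobase (on the CPM scale) ran from Fabp6 (27887 ± 650.8, SD, n = 3) through Osta (1482 ± 21.4), Ostb (1186 ± 46.1), Slc10a2 (185.9 ± 8.14), Abcc2 (48.2 ± 0.85), Nr1h4 (45.4 ± 1.30), Fgf15 (33.7 ± 0.88) and Abcc3 (6.49 ± 4.18) to Nr0b2 (1.56 ± 0.46). No neighbours in that order overlapped in their ranges. In SHP-KO the order began with Osta (521.3 ± 7.49), Slc10a2 (408.8 ± 14.4), Ostb (389.0 ± 20.3) and Fabp6 (373.4 ± 12.1). Slc10a2 and Ostb overlapped in their ranges there, as did Ostb and Fabp6. Abcc2 (49.1 ± 1.12), Fgf15 (25.1 ± 1.91), Nr1h4 (12.2 ± 0.65), Abcc3 (5.41 ± 0.20) and Nr0b2 (at most 0.11) followed. Carrier, importer and exporter thus lay within a narrow band of per-length levels in SHP-KO, while in WT the carrier stood far above the others.

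The ratio of carrier to importer shows the same. Per kilobase, Fabp6 stood to Slc10a2 at 148.3, 154.7 and 147.4 in WT and at 0.91, 0.86 and 0.98 in SHP-KO. The geometric mean fell 164.3-fold, a value that needs no scaling between libraries, with a two-sided exact permutation p of 0.1 (0.2 adjusted over 4 ratios). The ratio of Abcc2 to Abcc3 was 13.1, 4.34 and 10.5 in WT and 8.90, 9.27 and 9.06 in SHP-KO, and these overlapped (exact permutation p 1.0).

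**Figure D4:**
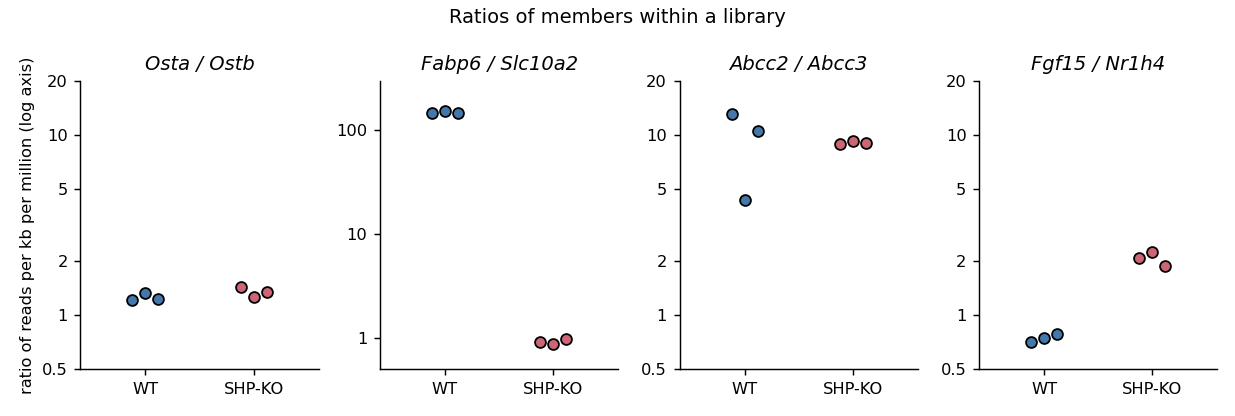
Ratios of per-kilobase levels between pairs of members in each library (log axes, the Fabp6 to Slc10a2 plot with its own range). Fabp6 to Slc10a2 goes from about 150.1 to 0.91, Fgf15 to Nr1h4 from 0.74 to 2.06, and the other 2 ratios overlap between genotypes.

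Further genes of bile acid handling were mostly low in this tissue. Of 16 listed genes, 7 had enough counts to be tested, and 4 fell, 1 rose and 2 did not pass, so that the share that passed was near the 70.6% of all tested genes. All 4 falls were at least 2-fold, where 8.15% of all tested genes fell that far. Without WT replicate 2, Abcg2 was just short of it (log2 -0.97). Baat, the enzyme that joins bile acids to taurine or glycine, fell from 15.8 ± 1.42 to 5.89 ± 1.15 CPM, and Slco2b1, an organic anion importer, fell from 18.5 ± 0.83 to 8.17 ± 1.67 CPM (SD, n = 3). Fgfr4, the receptor of Fgf15, was at 3.51 ± 0.66 CPM in WT and fell 2.01-fold. Abcb1a, an apical efflux pump, rose by log2 0.13 (adjusted p 4.3e-06, edgeR), a call lost in the exact test at a CV of 0.2 (adjusted p 0.76, edgeR). Cyp27a1, a sterol hydroxylase, was at 140.0 CPM in both genotypes. Cyp7a1, the rate-limiting enzyme of hepatic bile acid synthesis, had no counts, and Abcb11, the canalicular bile salt pump of the liver, had 16 counts in the WT libraries together and 2 in the others.

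Other genes that FXR is known to induce in intestine or liver fell in 4 of 6 tested cases, where 35.4% of all tested genes fell. Nos2, the inducible nitric oxide synthase, fell from 137.3 ± 4.32 to 24.2 ± 1.73 CPM, and Car12, a carbonic anhydrase, from 31.4 ± 0.49 to 6.41 ± 0.16 CPM. Sdc1, a heparan sulfate proteoglycan, fell 2.47-fold and Ang, an antimicrobial ribonuclease, 2.41-fold. Il18, an epithelial cytokine, rose from 37.8 ± 1.23 to 51.1 ± 2.62 CPM, a call lost in that exact test too (adjusted p 0.18, edgeR). Pltp, a lipid transfer protein, did not pass (adjusted p 0.17, edgeR). The list's median log2 fold change was -1.29.

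Transcription factors known to act on ileal bile acid genes moved both ways. Of 17 tested, 12 fell, 4 rose and Rxrb did not pass, beside 35.4% lower and 35.2% higher among all tested genes. The median over the list was log2 -0.50. With an assumed CV of 0.2 these became 7 lower, 1 higher and 9 not passing. Among all genes in that test 15.6% were lower and 2460 of 12939 were higher. Fos fell from 344.7 ± 10.9 to 176.0 ± 1.47 CPM, Cdx2, the intestinal identity factor, from 363.5 ± 9.76 to 192.0 ± 4.83 CPM and Hnf4a from 808.7 ± 13.4 to 494.6 ± 4.34 CPM. Nr5a2 (LRH-1), a nuclear receptor that SHP is known to inhibit, was low and fell 2.81-fold, from 14.5 ± 2.78 to 5.24 ± 0.94 CPM. Gata4, a jejunal factor known to repress Slc10a2 there, rose from 46.4 ± 2.34 to 96.1 ± 2.63 CPM. Slc10a2 rose in the same libraries, and a link between these 2 genes was not tested. Nr1h3 and Nr1h2, the oxysterol receptors LXR alpha and beta, rose by log2 0.49 and 0.20, and neither passed in the exact test at a CV of 0.2 (adjusted p 0.11 and 0.62, edgeR).

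Other markers of ileal enterocytes, none of them among the 9 genes, also fell in most cases. Of 17 tested, 12 fell, 3 rose and 2 did not pass, where 35.4% of all tested genes fell. In the exact test at a CV of 0.2 there were 10 lower, 2 higher and 5 not passing. Among all genes in that test 15.6% were lower and 2460 of 12939 were higher. The median of the ileal markers was log2 -0.69, and they summed to 24078 to 24733 CPM in WT and 15631 to 15777 CPM in SHP-KO. Slc13a1, a sulfate importer, fell from 550.7 ± 23.9 to 27.2 ± 0.87 CPM, Tmigd1 5.65-fold and Mep1a, a brush border protease, 2.96-fold. Plb1, Amn and Slc7a9 rose by log2 1.19, 0.59 and 0.12, the last not passing in the exact test at a CV of 0.2 (adjusted p 0.80, edgeR). Of 18 proximal enterocyte markers 14 rose, 3 fell and Rdh7 did not pass, where 35.2% of all tested genes rose, and their median was log2 0.84. In the exact test 12 were higher and the other 6 did not pass, again beside 2460 of 12939 genes higher. Fabp1, the liver-type fatty acid-binding protein, rose 17.3-fold, Apoc3 8.30-fold and Apoa4 5.35-fold, while Cyp3a13, Aldh1a1 and Slc5a1 fell 1.34-, 1.34- and 1.10-fold. These 3 falls were lost in the exact test (adjusted p 0.14, 0.14 and 0.67, edgeR). How much jejunum and how much ileum each sample held is not given in the labels used here, and their part in the results was not tested. Fewer ileal cells and less RNA per cell cannot be told apart in bulk tissue. Scaling to the summed epithelial markers moves all genes nearly alike and cannot separate jejunum from ileum. It took the median log2 fold change of all tested genes from -0.012 to 0.020. Under it the log2 fold changes of the 9 genes kept their direction and calls. That scaling gave -6.19 for Fabp6, -1.87 for Nr1h4 and 1.17 for Slc10a2.

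**Figure D5:**
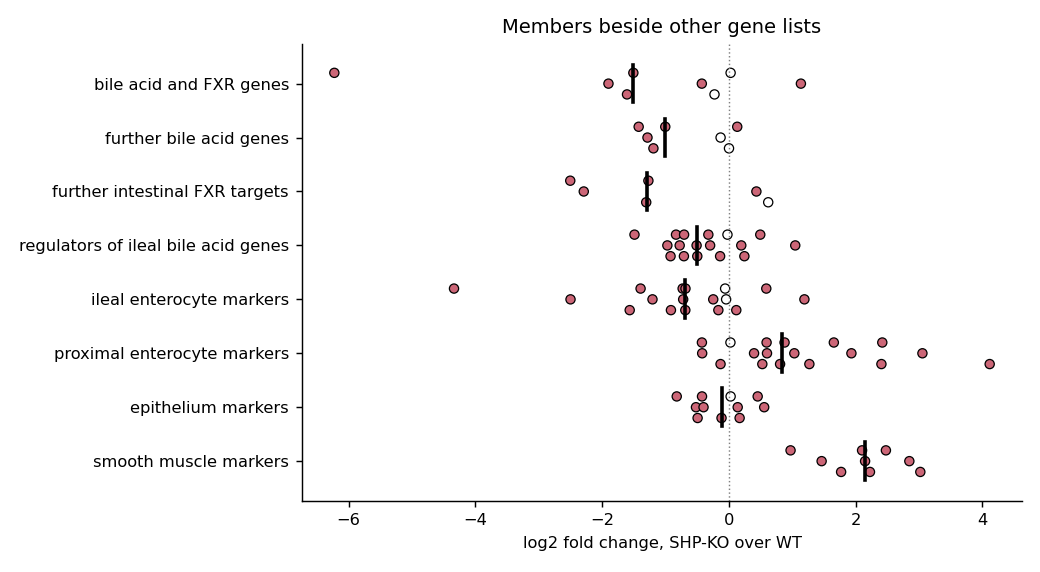
Log2 fold changes (SHP-KO over WT) of tested genes in the bile acid and FXR list and 7 other lists (red for an adjusted p under 0.05, white for others, black lines for medians, Nr0b2 not drawn). The medians are -1.51 for the bile acid and FXR genes, -0.69 for ileal enterocyte markers and 0.84 for proximal enterocyte markers. The first of these medians, and its black line, include Nr0b2 although its point is not drawn.

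The genes most like 3 of the members over the 6 libraries were found by the root mean square difference of centred log2(CPM + 0.5). Nearest to Fabp6 were Slc25a48, a mitochondrial carrier (difference 0.52), Mt2, a metallothionein (0.60), and Fkbp5, a chaperone of steroid receptors (0.74). They fell from 41.8 to 0.66, from 50.4 to 0.80 and from 179.0 to 6.13 CPM on the mean. Nearest to Slc10a2 were Lrp11 (0.030), Adamtsl5 (0.035) and Prrc1 (0.037), and nearest to Fgf15 were Ntan1 (0.0095), 1810027O10Rik (0.016) and Snx14 (0.024). With only 2 genotypes, likeness here is mostly a like fold change, and the added 0.5 shrinks that of genes near 0, such as Lrp11 at 0.73 CPM in WT.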

How the data were processed

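RNA-seq of 6 mouse intestine libraries was used, 3 WT and 3 SHP-KO. The submitters' processing notes name Trimmomatic 0.38, STAR 2.6.0c and edgeR, with mm9 as the build. The deposited counts are reads per gene from featureCounts 1.5.2, unstranded and summed over exons, per the file headers, so overlapping and antisense genes cannot be told apart. The run numbers inside those headers differ from the numbers under which the files were deposited. Libraries were assigned to genotypes by the sample records, and the Nr0b2 counts go with that assignment of genotypes, while replicate numbers have no such check. The authors' deposited table gives log2 fold changes, log2 mean CPM and p-values, and an edgeR exact test with a CV of 0.2 gave the same 12939 genes, log2 fold changes within 3.1e-10 and p-values within 9.4e-10.

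Of 23284 genes, 12106 passed filterByExpr (minimum count 10). They were scaled by TMM and tested with edgeR 4.0.16 (quasi-likelihood, robust, R 4.3.3), with Benjamini-Hochberg adjustment over all tested genes at 0.05. SE and intervals come from the same model. CPM were scaled by TMM, and per-length values (reads per kilobase) divide them by the summed exon length in the count files. Ratios were tested on the log2 scale with exact permutation (scipy 1.17.1). Counting intervals are exact (95%) and cover counting error only. Likeness used log2(CPM + 0.5). Members and lists were chosen with earlier results of these data known. Named list genes are up to 3 per direction with the smallest p, others being picked after their values were seen. On simulated counts of 12106 genes for this comparison, 45 of 50 genes changed 2-fold were recovered, and 36 of 50 changed 1.5-fold. These counts were drawn with a CV close to the 0.0297 of these libraries. Changed genes were picked from those with at least 60 counts summed over the libraries. Recovery at a CV of 0.2 was not tested. Alternatives were DESeq2 1.42.0 and its size factors, no scaling, epithelial scaling, other filters, limma-voom 3.58.1, no robust estimation, a replicate block, an assumed CV of 0.2 and leaving out each library. Leaving Fabp6 out of the scaling was added after seeing the data. Upstream sequences are RefSeq's (GRCm38.p6), and no coordinates were carried between builds. Muc3, 1 listed ileal marker, matched no gene name in the files.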

Additional observations from a re-analysis of the deposited data

How the results depend on the processing

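Among the 9 genes, calls and directions held under every alternative run except for Fgf15, Abcc3 and Abcc2. With an assumed CV of 0.2 (exact test), Fgf15 did not pass (log2 -0.44, adjusted p 0.15, edgeR; 1.1e-14 to 0.15 over the alternatives that keep all libraries). That setting also lowered the number of genes differing from 8543 to 4483 (2460 higher, 2023 lower). It left 5 of the 9 genes lower, Nr0b2 among them. Leaving out 1 library at a time gave log2 -0.53 to 0.40 for Abcc3, and 1 to 2 of the 9 genes higher, the upper values without WT replicate 2. It gave log2 differences of -0.37 to 0.43 for the Abcc2 to Abcc3 ratio, which turned without WT replicate 2. Abcc2 ranged from -0.033 to 0.059 over the other settings and never passed. Without SHP-KO replicate 1, Nr0b2 had no count left in SHP-KO. Libraries sharing a replicate number did not deviate together (r 0.024, 0.034 and -0.0046 across genes), and the replicate block changed no call among the 9 genes (log2 -6.22 for Fabp6, -0.43 for Fgf15, and 8573 genes differing in all). The counts of Nr0b2, at most 31 per library, limit its precision.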

Other observations

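In the SHP-KO libraries the same search looked for 1 library at least 1.5-fold above, or at most 1/1.5 of, the mean of the other libraries. It found 14 genes among 5756 with at least 500 counts. None of the bile acid and FXR genes was among them, but Nr0b2, with 1 count in SHP-KO, was below the minimum and not searched. Pmvk, an enzyme of the mevalonate pathway, was at 125.1, 12.9 and 12.8 CPM in SHP-KO replicates 1 to 3, and Mvd, a later enzyme of the same pathway, at 9.16, 53.8 and 166.0 CPM. In WT the same genes lay between 41.3 and 47.8 CPM. These genes and thresholds were chosen after the values were seen, and no cause was tested.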
